A study of Mus musculus with 2 samples.

Results

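The genes described here are the cytosolic translation initiation and elongation factors and the aminoacyl-tRNA synthetases, measured in CD45-negative cells sorted from tumours in mice with and without the gene Mtdh. They were chosen by name: autosomal genes of the deposited table whose symbols begin with Eif1 to Eif6, Eef1 or Eef2, or are the symbol of a tRNA synthetase, without the eIF2 kinases. The rule found 94 of the 12707 listed genes. By function, 39 act in initiation, 7 in elongation, 20 are cytosolic synthetases, 14 are mitochondrial synthetases, and 14 are modifiers and regulators that carry the name of a factor. Ears2 and Pars2, the mitochondrial synthetases for glutamate and proline, have symbols outside the rule and are given with the related genes.

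Py8119 is a mouse mammary tumour line with mesenchymal character. It was grown as tumours in mice labelled Mtdh wild type (WT) or Mtdh knock out (KO), and the injected cells carried wild-type Mtdh in both groups. Live cells negative for CD45, a leukocyte surface protein, were sorted and their RNA sequenced, so the libraries can hold stromal as well as tumour cells. There was 1 library per host genotype. The labels give no strain, age, sex, number of mice or Cre driver for the hosts, so what each library pools is not known. With no replicate there is no p-value and no spread between samples, and each difference below is one between 2 libraries, not shown to be one between genotypes.

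Protein synthesis begins when the eIF2 complex brings the initiator tRNA to the small ribosomal subunit, which eIF3, eIF1 and eIF1A prepare and which eIF4F recruits to the capped mRNA. eIF2B recharges eIF2 with GTP and is the enzyme that stress kinases block through eIF2alpha. eEF1A then delivers each aminoacyl-tRNA and eEF2 moves the ribosome along. The synthetases load each amino acid onto its tRNA, with separate enzymes for the cytosol and for mitochondria in most cases, and several cytosolic enzymes form a large complex. Under amino acid or endoplasmic reticulum stress the transcription factor ATF4 induces a subset of the cytosolic synthetases through a short element in their promoters, which is shown first because it divides the enzymes described below.

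Promoters of 69 of the 94 members were found in the RefSeq table for build GRCm38.p6, which gives 250 bases before and 50 after each annotated start. The C/EBP-ATF response element (CARE) was searched as TGATGNAA on both strands. It lay in 1304 of all 32851 promoter windows (3.97%). Among synthetases commonly listed as ATF4 targets it lay in the windows of 5 of the 8 with an entry, and among the other cytosolic synthetases in 0 of 5. No initiation factor, elongation factor or mitochondrial synthetase window held it, and among the modifiers and regulators that of Eef2k did. The 5 stretches are given 5′ to 3′ on the gene strand with the matches in capitals. The Aars stretch also holds an E-box, CACGTG, the core bound by MYC, before the CARE, and a STAT-type match, TTCNNNGAA, after it.
Aars (alanine), chr8:111033692-111033767, plus strand: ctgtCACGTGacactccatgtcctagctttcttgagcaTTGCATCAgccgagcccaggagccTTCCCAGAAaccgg
Gars (glycine), chr6:55037941-55038000, plus strand: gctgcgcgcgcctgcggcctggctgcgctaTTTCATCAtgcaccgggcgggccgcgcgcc
Tars (threonine), chr15:11399659-11399703, minus strand: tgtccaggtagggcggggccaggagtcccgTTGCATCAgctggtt
Iars (isoleucine), chr13:49682118-49682146, plus strand: gagcctggcactgtcagtaTTGCATCAcc
Yars (tyrosine), chr4:129189891-129189919, plus strand: agcgacgagctcagcTGATGCAAcccgac
In Iars and Yars the match lies just after the annotated start, and Aars has another match after its start that is not shown. Eprs, Mars1 and Sars had an entry without this match. A match is a description of the letters and not a measured site.

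The E-box was in 7.15% of all promoter windows and in 20 of the 84 windows of the members (23.8%). It was found in 8 of 30 initiation factor genes with an entry, 3 of 5 elongation genes, 4 of 13 cytosolic synthetases and 0 of 12 mitochondrial synthetases. The TTCNNNGAA match was in 8.30% of all windows and in 8 of the members' 84 (9.52%). A start of C followed by 4 or more C or T, as in mRNAs with a terminal oligopyrimidine (TOP) tract, was in 2.51% of all windows and in 2 of the members' windows, those of Eif3f and Wars2. The 3 stretches below show an E-box pair, a single E-box, and an E-box with a TOP start, with matches in capitals.
Eif5a2, chr3:28781127-28781172, plus strand: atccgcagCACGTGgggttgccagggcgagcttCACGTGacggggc
Eef2, chr10:81176576-81176605, plus strand: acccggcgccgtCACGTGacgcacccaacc
Eif3f, chr7:108934340-108934426, plus strand: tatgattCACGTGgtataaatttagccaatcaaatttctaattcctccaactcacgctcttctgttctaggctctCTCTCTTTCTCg
Annotated starts can lie some bases from the used cap site. The TOP start was sought only at the annotated first base, so a gene without a match may still have one nearby. For the other motifs, no match says only that the letters are not in the window.

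By recovery from the deposited values, the 12707 listed genes held 26069378 reads (wild-type host) and 23381852 (knockout host). Reads outside these genes are not counted, so these are not full library sizes. In the knockout-host library, fibroblast markers were lower (summed 2021 and 786.6 RPM, recovered reads per 1000000, over 5 of 6 markers listed) and so were pericyte markers (425.3 and 91.8 RPM over 5 of 6). Of these markers, Cspg4 was listed at 0 in the knockout-host library. By 2-fold or more, 4 of 5 tested fibroblast markers and 3 of 3 pericyte markers were lower. Over all genes tested, 11.4% were (3.92% at 1000 reads or more, 23.6% at 100 to under 1000). Pdgfra, the other fibroblast marker, had 5834 and 5056 reads (log2 ratio -0.05). Most of the fibroblast sum came from Col3a1 (1136.5 and 473.7 RPM) and Col1a1 (618 and 88.1 RPM). The 4 epithelial markers summed to 192.6 and 288.3 RPM, and the 4 mesenchymal markers to 8365 and 7323. Pan-leukocyte markers summed to 18.6 and 21.0 RPM over 7 of 8, with 46 and 64 reads for Ptprc, which encodes CD45, and endothelial markers to 18.3 and 14.2 over 3 of 7. Within that sum, Plvap had 348 and 58 reads, Cdh5 had 1 and 146, and Pecam1 had 129 and 128. The part of these markers in the results below was not tested. Whether tumour or stromal cells gave these reads is not known, and fewer cells of a type and less RNA per cell cannot be told apart.

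Most translation genes stood at nearly the same level in the 2 libraries. Together the 94 members took 2.002% of the reads on listed genes in the wild-type-host library and 1.87% in the knockout-host library. Of the 92 with 100 reads or more over both libraries, 86 lay within 2-fold, 1 was higher by 2-fold or more in the knockout-host library and 5 were lower. Over all 10670 genes tested in the same way, 8.47% were higher and 11.4% were lower by that rule. At 1.5-fold the members gave 5 higher and 10 lower, against 15.8% and 20.8% of all genes. The median log2 read ratio of the members, knockout over wild-type host, was -0.10 (quartiles -0.33 and 0.11), and that of all genes tested was -0.06 (quartiles -0.48 and 0.32). The members were also more deeply read, with a median of 2996 reads over both libraries against 1613 for all genes tested.

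The spread differed with depth. Among genes with 1000 reads or more, 2.84% were higher and 3.92% lower by 2-fold, while among genes with 100 to under 1000 reads it was 17.6% and 23.6%. Of the 73 members in the deeper range, 1 was past 2-fold, and 66 (90.4%) lay within 1.5-fold, against 78.7% of all genes of that depth. At 1.5-fold these 73 gave 3 higher and 4 lower, against 8.94% and 12.4% of all genes. On the deposited log2 scale, 0 of the 71 members with a mean of 1 or more were higher by 2-fold and 1, Eif4ebp3, was lower, against 2.31% and 2.64% of all genes. Of the 19 members in the shallower range, 1 was higher and 4 were lower by 2-fold. The other 2 members had under 100 reads. Counting error alone is small for most members: the 95% counting interval of the ratio, an exact conditional binomial (Clopper-Pearson) interval, lay below 1 for 46 of the 92, above 1 for 24, and held 1 for 22. These intervals cover counting error only, not differences between tumours or library preparations.

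**Figure D1:**
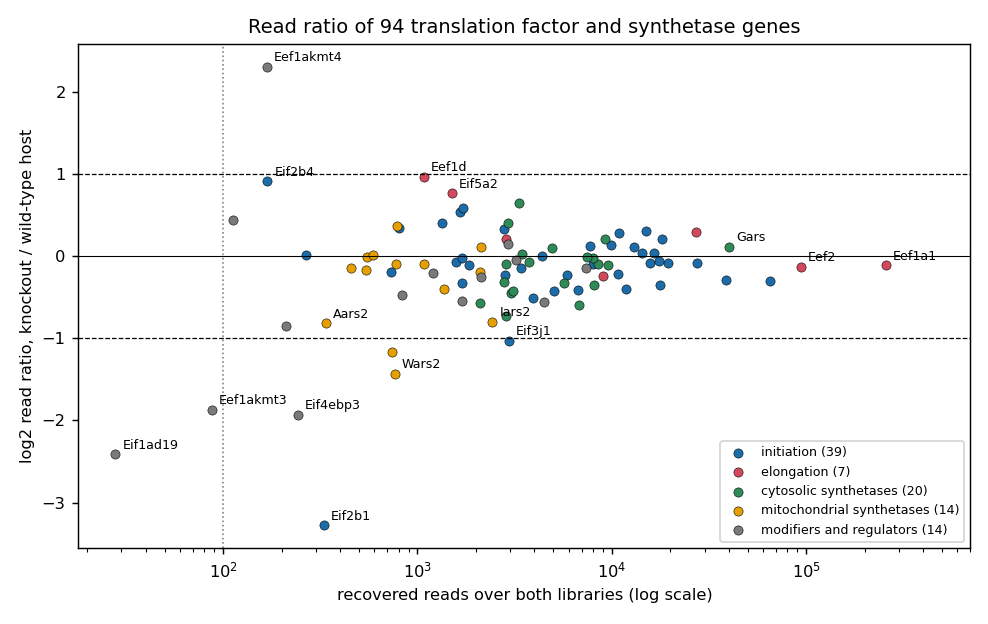
Log2 read ratio (knockout over wild-type host) of each of the 94 members against its recovered reads over both libraries, on a log scale, coloured by class. Dashed lines mark 2-fold and the dotted line the minimum of 100 reads; the members far from 0 sit at low reads, with Eif2b1 at -3.27 as the lowest.

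By class, the medians were -0.08 for initiation, 0.20 for elongation, -0.10 for cytosolic synthetases, -0.16 for mitochondrial synthetases and -0.23 for the modifiers and regulators. Members above 0 numbered 15 of 39, 4 of 7, 6 of 20, 3 of 14 and 3 of 12 tested in that order. For all genes tested, 4862 of 10670 were above 0 and 54.4% were below. The summed RPM of each class was lower in the knockout-host library: 8172 and 7542 for initiation, 8129 and 7692 for elongation, 2850 and 2743 for cytosolic synthetases, and 327.2 and 261.5 for mitochondrial synthetases. Elongation is the only class whose median and sum point in different directions, since Eef1a1 and Eef2 dominate its sum. Its median was -0.11 when Eif5a and Eif5a2 were counted with initiation, by name. It was also -0.11 without the members that overlap a listed gene. The sign of this class of 7 genes thus rests on which of them are counted.

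The most abundant member was an elongation factor, but the class was spread widely. On the scale of RPM per kilobase of coding sequence, Eef1a1, the carrier of aminoacyl-tRNA, had the highest level of all 94, at 3874 in the wild-type-host library and 3594 in the knockout-host library. It had 139993 and 116484 reads, and the ratio was 0.928 (95% counting interval from 0.920 to 0.935). Eef2, the translocase, had 51577 and 42326 reads, a ratio of 0.915 (0.903 to 0.927). Both were slightly lower in the knockout-host library. Of the 50-base windows of the Eef1a1 transcript, 60.6% occur in other genes, most of them processed copies, so its exact count is uncertain.

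The exchange factor of eEF1A was uneven. Eef1g, its scaffold subunit, had 5100 and 3862 reads (log2 ratio -0.24), while Eef1b2, a nucleotide exchange subunit, had 1411 and 1457 (0.20). Of the Eef1g windows, 64.3% occur in other genes, so its exact count is uncertain too. Eef1d, the other exchange subunit, had 391 and 684 reads, a ratio of 1.95 (1.72 to 2.21), just under 2-fold. It had the lowest level per coding kilobase of the class in both libraries, 7.57 and 14.8, where the long form of its coding sequence was the length used. Naprt, on the same strand and overlapping Eef1d, had 64 reads in the wild-type-host library and was listed at 0 in the other.

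eIF5A, which relieves stalls at prolines and carries the hypusine modification, was higher for both of its genes. Eif5a had 12861 and 14135 reads, a ratio of 1.23 (1.20 to 1.26). Its paralogue Eif5a2 had 595 and 907 reads (log2 ratio 0.77), and no 50-base window in common with another gene. Eif5a remained the main form, since Eif5a2 made up 4.42% of the pair's reads in the wild-type-host library and 6.03% in the knockout-host library. Eif5a2 is the gene whose promoter holds the E-box pair printed above.

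Among initiation factors the largest difference was in eIF2B, and it concerned 1 subunit. Eif2b1 (ENSMUSG00000029388, chr5:124708276-124717195 in mm39, minus strand) encodes the alpha subunit, which holds the complex together and senses phosphorylated eIF2. It had 302 reads in the wild-type-host library and 28 in the knockout-host library, 9.67-fold lower (6.56 to 14.8). No window of its transcript is shared with another gene, and no listed gene overlaps it. A ratio at or under that of Eif2b1 was found for 68 of the 1629 genes with 200 to 500 reads (4.17%). None of the other subunits was lower by 1.5-fold, against 20.8% of all genes tested. Eif2b5, the catalytic subunit, had 2315 and 2073 reads, which is a log2 ratio of -0.002. Eif2b2 had 903 and 794 (-0.03), Eif2b3 991 and 710 (-0.32), and Eif2b4 63 and 106 (0.91, counting interval of the ratio 1.36 to 2.60). Per coding kilobase the subunits ranged from 1.42 (Eif2b4) to 41.3 (Eif2b5) RPM in the wild-type-host library and from 1.31 (Eif2b1) to 41.2 (Eif2b5) in the other, although the complex holds them in equal number.

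The substrate of eIF2B was less uneven. Eif2s1, the alpha subunit of eIF2 and the target of the stress kinases, had 2423 and 1525 reads, a ratio of 0.702 (0.658 to 0.749). Eif2s2, the beta subunit, had 4989 and 4918 (log2 ratio 0.14). The alternative initiator tRNA carriers Eif2a and Eif2d were at -0.23 and -0.20. The gamma subunit gene Eif2s3x lies on X, outside the autosome rule.

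eIF3 is the scaffold of the preinitiation complex. Of its 14 genes, 11 were below 0 and 3 above, where 54.4% of all genes were below. Their median log2 ratio of -0.10 was near that of all genes (-0.06), and their sum was 2624 and 2332 RPM. Below 0, Eif3l (-0.41), Eif3b (-0.41) and Eif3m (-0.36) came after Eif3j1, and above 0 stood Eif3g (0.41), Eif3j2 (0.32) and Eif3f (0.13). The core subunits Eif3a and Eif3c were at -0.08 and -0.23. Only Eif3j1 was past 2-fold, with 2053 and 902 reads, 2.04-fold lower (1.89 to 2.21). Its near-identical copy Eif3j2 lay on the other side of 0, with 1316 and 1478 reads, and 91.8% of the 50-base windows of Eif3j2 occur in other genes, 90.8% in Eif3j1. Spg11, on the opposite strand and overlapping Eif3j1, had 6058 and 4203 reads (-0.37). Summed, the pair had 3369 and 2380 reads, a ratio of 0.788 (0.747 to 0.830), so the split between the copies is uncertain and the sum is within 1.5-fold. Eif3j2 took 39.1% of the pair's reads in the wild-type-host library and 62.1% in the other.

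The cap-binding machinery was close to even, with 6 of 10 genes above 0 and a median of 0.07. Over all genes tested, 4862 of 10670 were above 0 and the median was -0.06. The cap-binding protein Eif4e had 6579 and 6376 reads (0.11) and its scaffold Eif4g1 had 7419 and 6802 (0.03). The helicases Eif4a1 (0.28) and Eif4a2 (0.31) were both above 0, in nearly the same proportion: Eif4a2 made up 57.6% and 58.1% of their reads. Of the Eif4a1 windows 65.3% occur in other genes, and of the Eif4a2 windows 26.2%. The exact counts of these helicases, and the split between them, are therefore uncertain. Eif4b and Eif4h, the helicase cofactors, were at -0.29 and -0.09. Eif4g2, a scaffold that works without eIF4E, had 37735 and 27502 reads, a ratio of 0.813 (0.800 to 0.825), and was the most read initiation factor. Eif4g3 had 718 and 930 reads (0.53). None of the 10 was past 1.5-fold. Of them, 9 had 1000 reads or more, where 8.94% of all genes were higher and 12.4% lower by that rule.

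Of the factors that act around start codon choice and subunit joining, Eif1 had the highest level per coding kilobase among initiation factors, 1013 and 1170 RPM, and a log2 ratio of 0.21. Eif1a was at -0.22, Eif5 at 0.03 and Eif5b at -0.42. Eif6, which keeps free large subunits from joining, had 732 and 983 reads (log2 ratio 0.58).

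**Figure D2:**
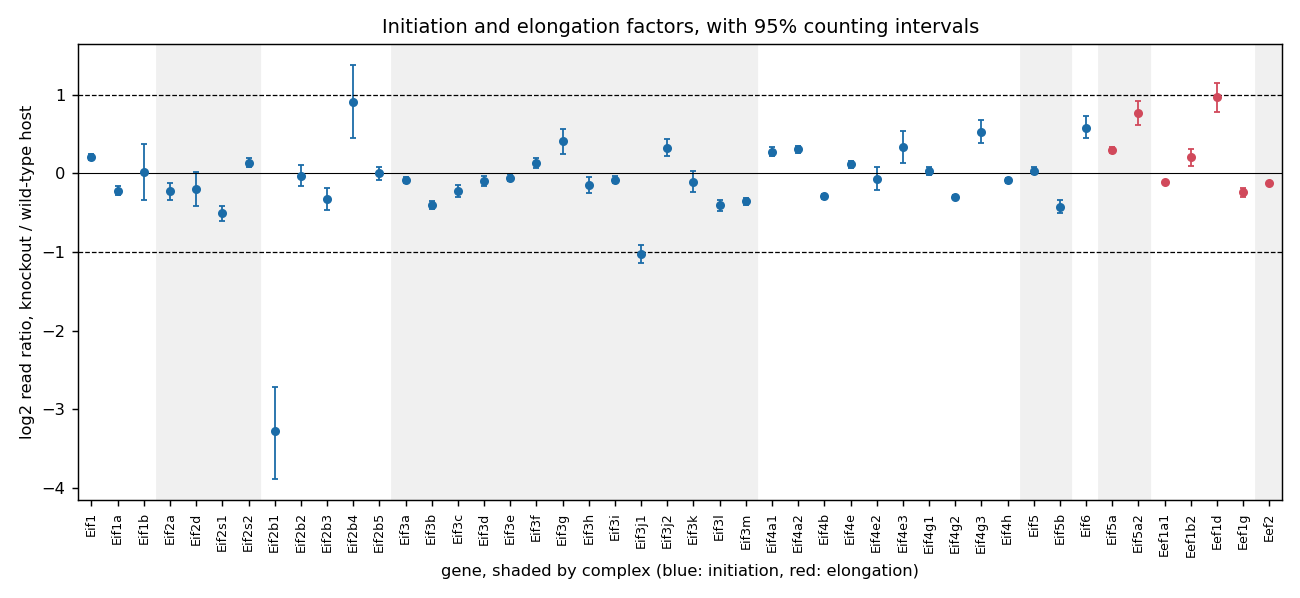
Log2 read ratio (knockout over wild-type host) of the initiation factors (blue) and elongation factors (red), shaded by complex, with 95% counting intervals of reads as bars. Eif2b1 at -3.27 and Eif3j1 at -1.03 are the points past the lower 2-fold line, and Eef1d at 0.96 lies just inside the upper one.

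The 4E-binding proteins hold eIF4E away from eIF4G until mTORC1 phosphorylates them. Their genes and Eif4enif1 were below 0, as were 54.4% of all genes tested. Eif4ebp2 had 4057 and 3284 reads, a ratio of 0.902 (0.862 to 0.945). Eif4ebp1 had 2797 and 1699 reads, a ratio of 0.677 (0.637 to 0.720). Eif4ebp3 (chr18:36797113-36798971 in mm39) had 196 and 46 reads and was 3.82-fold lower (2.76 to 5.39). It lies inside the listed gene Maskbp3 on the same strand, which had 624 and 299 reads, and 65.5% of its windows are shared with a readthrough transcript, so these reads cannot be assigned to Eif4ebp3 alone. Eif4enif1, which carries eIF4E into the nucleus, was at -0.05 (counting interval of the ratio 0.900 to 1.03).

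The enzymes that modify elongation factors had few reads. Eef1akmt4 (chr16:20430343-20437762 in mm39), a lysine methyltransferase of eEF1A, was the only member higher by 2-fold or more, with 31 and 137 reads, a ratio of 4.93 (3.32 to 7.53). Of its windows 41.3% are shared with a readthrough transcript, and Alg3 overlaps it on the opposite strand with 86 and 58 reads. Eef1akmt2 had 141 and 70 reads (log2 ratio -0.85). Eef1akmt3 had 70 and 17 reads, under the minimum, and overlaps Mettl1, a tRNA methyltransferase on the opposite strand that had 199 and 734. Eef2k, the kinase that inhibits eEF2, had 1463 and 1458 reads (0.15). Eif4a3, a core protein of the exon junction complex, was at -0.55, Eif1ad at -0.26 and Eef1e1, a subunit of the synthetase complex, at -0.21. Eif1ad19, with 24 and 4 reads, was also under the minimum.

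None of the 20 cytosolic synthetases was past 2-fold. All 20 had 1000 reads or more, where 2.84% of all genes were higher and 3.92% lower, so a count of 0 is near the share over all genes. Their log2 ratios ran from -0.72 to 0.65, with 6 above 0 and 14 below. Sars (serine) had 1858 and 1009 reads, a ratio of 0.606 (0.560 to 0.654). Lars (leucine) had 4243 and 2514 reads, a ratio of 0.661 (0.629 to 0.694). Dars (aspartate) was at the other end with 1382 and 1938 reads, a ratio of 1.56 (1.46 to 1.68). These 3 were the ones past 1.5-fold, where 8.94% of all genes with 1000 reads or more were higher and 12.4% lower. Qars (glutamine, -0.57), Cars (cysteine, -0.45) and Farsb (-0.43) followed on the lower side, and Mars1 (methionine, 0.40) and Iars (0.21) on the higher. The subunits of phenylalanine synthetase differed, with Farsa at 0.02 and Farsb at -0.43. Mars1 overlaps Ddit3 on the opposite strand, and Ddit3 had 1028 and 353 reads.

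Gars, which serves both cytosol and mitochondria, was the most abundant synthetase. It had 20253 and 19647 reads, a ratio of 1.08 (1.06 to 1.10), and 355.2 and 384.2 RPM per coding kilobase. Kars, which also serves both, had 4253 and 3764 reads, a ratio of 0.987 (0.944 to 1.03), and 87.2 and 86.0 RPM per coding kilobase. Nars (asparagine) had 108.9 and 85.5 RPM per coding kilobase, above Kars in the wild-type-host library and just below it in the other, and a log2 ratio of -0.35. The median of the 20 enzymes was 45.9 RPM per coding kilobase in the wild-type-host library and 43.9 in the knockout-host library. Gars stood well above the others in both.

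The division by the ATF4 list did not separate the enzymes. Over the 12 listed as ATF4 targets, 4 were above 0 and the median was -0.09; over the other 8, 2 were above 0 and the median was -0.10. The 5 with the CARE printed above lay on both sides of 0, with Aars at -0.11, Gars at 0.11, Tars at -0.32, Iars at 0.21 and Yars at -0.07. Among the 8 enzymes of the multi-synthetase complex the median was -0.01 with 3 above 0, and among the 12 outside it -0.11 with 3 above 0. Wars (tryptophan), which interferon gamma induces in many cells, had 2509 and 2415 reads, a ratio of 1.07 (1.01 to 1.14), and overlaps Wdr25 on the opposite strand.

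Mitochondrial synthetases had lower levels than cytosolic ones by median. Their median level was 9.78 RPM per coding kilobase in the wild-type-host library and 8.16 in the other. A log2 ratio below 0 was found for 11 of 14, where 14 of 20 cytosolic synthetases and 54.4% of all genes had one. Among the 11, Fars2, Cars2, Mars2, Yars2 and Nars2 had counting intervals of the ratio that held 1. Wars2 (tryptophan; chr3:99048384-99146503 in mm39) had 573 and 191 reads, 2.69-fold lower (2.28 to 3.19). Iars2 (isoleucine) had 1605 and 827 reads, a ratio of 0.574 (0.528 to 0.625), and overlaps Rab3gap2 on the opposite strand, which had 2060 and 964. Of the Iars2 windows 36.6% occur in Rab3gap2, and strand use is not given, so these reads cannot be assigned to Iars2 alone. Aars2 (alanine) had 224 and 114 reads, 1.76-fold lower (1.40 to 2.23). None was higher by 1.5-fold, against 15.8% of all genes tested. Rars2 (arginine) was the highest with 363 and 420 reads (0.37). Hars2 (histidine) had the highest level per coding kilobase, 29.9 and 26.1 RPM. Of the 14, 9 had under 1000 reads, the range in which 23.6% of all genes were lower by 2-fold.

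For the same amino acid, neither compartment was lower throughout. In 13 pairs the mitochondrial enzyme had the lower log2 ratio in 7 and the higher in 6, with a median difference of -0.03. Wide gaps were those of Wars2 against Wars (-1.43 and 0.10), Iars2 against Iars (-0.80 and 0.21) and Aars2 against Aars (-0.82 and -0.11). The Iars2 value is uncertain because of the overlap with Rab3gap2. For arginine it was the reverse, with Rars2 at 0.37 and Rars at -0.33. Per coding kilobase the cytosolic enzyme had the higher level in all 13 pairs in both libraries. The gap ran from 1.31-fold (Hars over Hars2) to 23.8-fold (Aars over Aars2) in the wild-type-host library. In the other it ran from 1.12-fold (Tars over Tars2) to 38.7-fold (Aars over Aars2). Coding length leaves out untranslated sequence, which also yields reads, so the order of a close pair is uncertain. Tars and Tars2 have coding lengths of 2166 and 2169 bases but reference transcripts of 4005 and 2400.

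**Figure D3:**
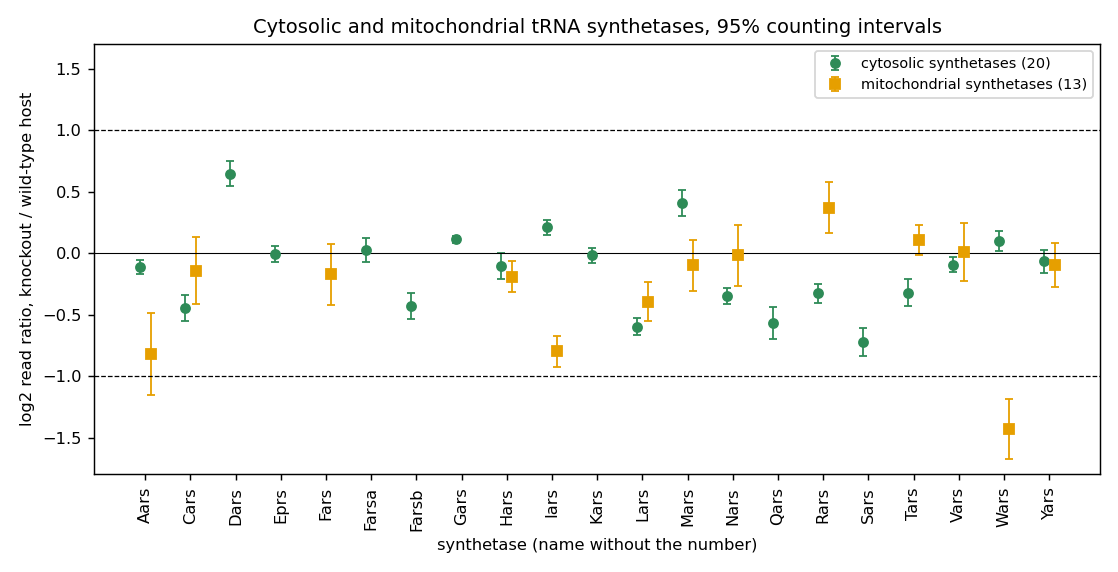
Log2 read ratio (knockout over wild-type host) of 20 cytosolic (green) and 13 mitochondrial (orange) tRNA synthetases, grouped by name, with 95% counting intervals of reads as bars. All cytosolic enzymes lie between the dashed 2-fold lines, and Wars2 (-1.43) lies under the lower one.

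**Figure D4:**
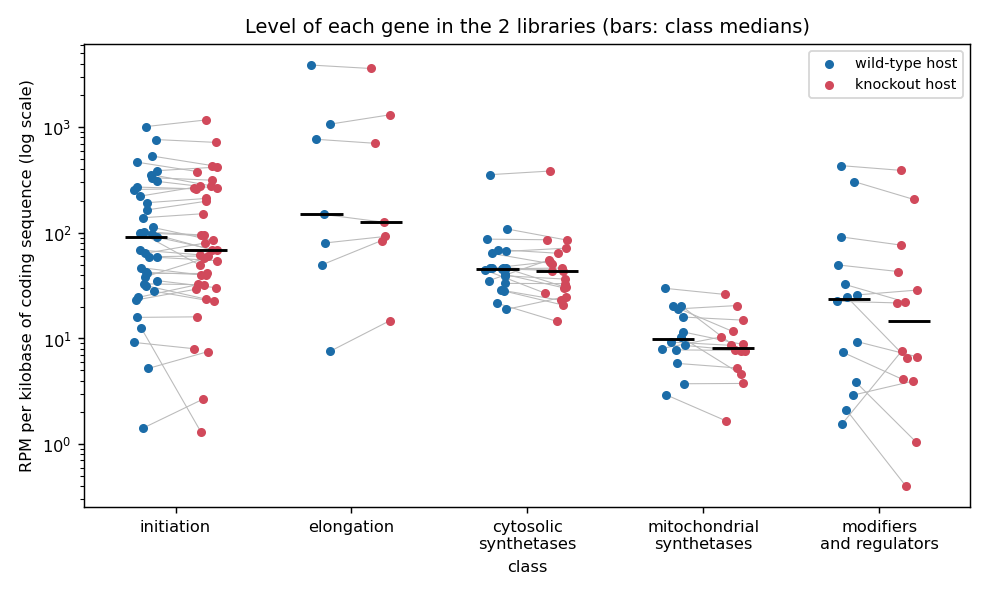
Level of each member in RPM per kilobase of coding sequence, on a log scale, in the wild-type-host (blue) and knockout-host (red) library, with lines joining a gene and black bars for class medians. Mitochondrial synthetases sit lowest by median among the 4 functional classes (9.78 and 8.16), and Eef1a1 is the highest point (3874 and 3594).

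Related genes were read from lists fixed by function. Of 7 tested genes around the synthetases (complex scaffolds, proline and selenocysteine enzymes), 3 were lower by 2-fold and 0 were higher. Over all genes tested, 11.4% were lower and 8.47% higher. These shares stand beside each list count below, but they vary with depth. At 1000 reads or more they are 3.92% and 2.84%, and at 100 to under 1000 they are 23.6% and 17.6%. Only 2 of the 7 had 1000 reads or more. Aimp1, a scaffold of the multi-synthetase complex, had 918 and 249 reads, 3.31-fold lower (2.87 to 3.82), while Aimp2, another scaffold, was at -0.25. Pars2 had 297 and 2 reads, 133.2-fold lower with a counting interval of 36.5 to 1105. Dtd1, which removes wrongly loaded D-amino acids, had 144 and 55 reads. Ears2, with 69 and 20 reads, was under the minimum. Sepsecs, the selenocysteine enzyme, had 838 and 1047 reads.

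Among 14 mitochondrial translation factors, 3 were lower and 2 higher by 2-fold, and the median was -0.21. Mtfmt, which formylates the initiator methionine in mitochondria, had 271 and 30 reads, 8.21-fold lower (5.55 to 12.2). Qrsl1, a subunit of the glutamine amidotransferase, had 59 and 200 reads, a ratio of 3.78 (2.81 to 5.14), and Mtrf1l, a release factor, had 168 and 49. Gatc and Gfm2, the most read of the list, were at -0.21 and -0.33. Of 7 tested cytosolic termination and recycling genes, 1 was lower and 0 were higher: Gspt2 had 154 and 2 reads, 69.1-fold lower (18.8 to 575.4), while its paralogue Gspt1 was at 0.02, Etf1 at 0.10, Abce1 at -0.23, Hbs1l at -0.25 and Denr at 0.54.

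The kinases and phosphatase subunits that control eIF2alpha, with Nck1 and Impact from the same list, were all within 2-fold. All 8 had 1000 reads or more, where the shares past 2-fold are 3.92% lower and 2.84% higher. Eif2ak3, the kinase PERK, had 1032 and 505 reads, a ratio of 0.546 (0.490 to 0.607), and Ppp1r15b, which directs the phosphatase, had 5955 and 7785 (0.54). Eif2ak1 was at -0.41 and Nck1 at -0.07. Of 22 tested integrated stress response targets, 3 were lower and 1 was higher by 2-fold, with a median of -0.14. Of these 22, 19 had 1000 reads or more, where 3.92% of all genes were lower and 2.84% higher. Atf4 itself had 10096 and 12665 reads, a ratio of 1.40 (1.36 to 1.44). Ddit3, which encodes CHOP, had 1028 and 353 reads, 2.61-fold lower (2.31 to 2.96), Psph (serine synthesis) had 522 and 175, and Slc7a11, the cystine transporter, had 1484 and 630. Pycr1 (proline synthesis) had 177 and 476 reads (log2 ratio 1.59). Of the targets past 2-fold, only Ddit3 and Slc7a11, both lower, had 1000 reads or more. Phgdh, the first enzyme of serine synthesis, was at -0.43. The targets thus lay on both sides of 0, as the synthetases did.

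For the 18 genes that set cap-dependent translation through mTORC1 and MNK, 2 were lower by 2-fold and 0 higher, with a median of 0.03. Of the 18, 15 had 1000 reads or more, and neither of the lower genes was among them. Rps6kb2, an S6 kinase, had 121 and 2 reads, 54.3-fold lower (14.7 to 453.2), and Mlst8, a subunit of mTOR complexes, had 403 and 151. Pabpc1, the poly(A)-binding protein, had 46297 and 29938 reads, a ratio of 0.721 (0.711 to 0.732), and Pabpc4 was at 0.59. Larp1, which binds TOP mRNAs, was at 0.07. Of 30 tested genes of tRNA synthesis and maturation, 4 were higher and 1 was lower by 2-fold, with a median of 0.14. Mettl1 had a ratio of 4.11 (3.51 to 4.83), Brf2, a polymerase III initiation factor, had 80 and 290 reads, and Polr3c, a polymerase III subunit, had 556 and 188. Ddx1 and Xpot, the most read of this list, were at -0.08 and -0.14. Of the genes named here as past 2-fold, all but Aimp1, Ddit3 and Slc7a11 had under 1000 reads, where 17.6% of all genes were higher and 23.6% lower.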

How the data were processed

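The authors deposited 1 table of log2 values, log2 of FPKM + 1, with 1 column per library and 12707 protein-coding genes. The submitters' processing notes name STAR 2.7.8a, Partek and mm39 without their roles. Annotation release, strand use and multi-mapping rules are not given here. The deposited FPKM use the genomic span of each gene (the length column equals stop minus start in 100% of rows), so the added 1 hides differences of long genes. Reads were therefore recovered: each value was turned back to RPM, and the total at which low values fall on whole numbers was found by search and least squares. Under 1000 reads, 84.9% and 83.4% of values were whole within 0.1 read, and 61 of the 94 members were whole in both libraries. Recovery was tested on simulated data. The main measure was the log2 ratio of RPM with a fold of 2, for genes with 100 reads or more and no value of 0. Of the 10670 such genes, 23 had under 0.5 read in a library and count as past 2-fold; none is a member. The design planned protein lengths. Coding lengths (longest coding sequence, GENCODE vM21, matched by gene ID for all 94 members) were used instead. They leave out untranslated sequence, so levels of different genes compare only roughly. Shared windows of 50 bases were counted against all GENCODE vM21 transcripts, on both strands. Of the 94 members, 23 shared over 10% of their windows, and their counts are the less certain ones. Promoters were matched by symbol or synonym, and their GRCm38.p6 coordinates are not comparable with mm39 ones. Members named in full were those past 2-fold, and the 3 of each class with the highest level and the 3 with the largest ratio. For each related list they were the 3 with the largest ratio and the 2 most read. Others were named after their values were seen, to complete a complex or pair. The members and lists were chosen with earlier results of these data known. Computation used Python 3.11.15, pandas 2.3.3, numpy 2.4.6 and scipy 1.17.1. The values of 1 member are not reported here, though it is counted in the totals.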

Additional observations from a re-analysis of the deposited data

How the results depend on the processing

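With 1 library per genotype, no library could be left out. No paired analysis was possible because each group holds 1 sample. The counts of members past 2-fold (1 higher, 5 lower) depended on the scale and the filter. Higher and lower counts were 0 and 1 on the deposited log2 scale, 0 and 1 with 1000 reads or more, 0 and 0 with 5 added to FPKM, and 5 and 10 at 1.5-fold. With 0.1 added the lower count was 2, and with whole reads only it was 3. Centred on the median of all genes the higher count was 2. Without members that overlap a listed gene the counts were 0 and 3, and without members that share over 10% of windows 0 and 2; both settings were chosen after seeing the data. Among class medians, cytosolic synthetases were at -0.32 with whole reads only and -0.22 without overlapping members. Elongation was at 0.48 with whole reads only, -0.11 without overlapping members and -0.11 without Eif5a and Eif5a2. Initiation was at -0.016 when centred and -0.022 with 5 added. A count was taken as moved past 1.5 times, a median past the counting error of its middle gene, and a sum outside its counting interval; the other 56 values were within these limits. The limits are wide where reads are few: the mitochondrial synthetase median (-0.16) was -0.02 with 5 added, -0.07 on the deposited scale and -0.35 as a mean, and that of the modifiers (-0.23) was -0.37 with no minimum, where the lower count was 7. Low reads limit the modifiers and mitochondrial synthetases most.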

Other observations

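The name rule without its autosome condition takes in 3 more genes, 2 on X and 1 on Y. Eif2s3x, the gamma subunit of eIF2, had 8044 and 7602 reads in the libraries from wild-type and knockout hosts, a ratio of 1.05 (95% counting interval 1.02 to 1.09). Eif1ax, the X copy of eIF1A, had 4712 and 3934 reads, a ratio of 0.931 (0.892 to 0.971). Eif2s3y, the Y copy of the gamma subunit, had 3 and 13 reads, a ratio of 4.83 with a counting interval of 1.33 to 26.4. The X copies were within 1.5-fold, and the Y copy was near 0 in both libraries.

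Several members overlap a neighbour on the opposite strand that differed in the other direction. Eef1b2 had a log2 ratio of 0.20 and Ndufs1 -1.21, Eif4a2 0.31 and Rfc4 -2.35, Eif1ad -0.26 and Banf1 1.29, and Eif4enif1 -0.05 and Drg1 0.59. Strand handling is not given in the sources used here, so reads in the overlaps cannot be assigned to either gene. These were chosen after their values were seen.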
